A study of Mus musculus with 6 samples.

Results

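The genes described here encode the enzymes that add methyl and acetyl groups to histones and those that take them off. They were chosen by symbol, with earlier results of these data known. The rule took the Kmt2 to Kmt5, Setd, Nsd, Kdm1 to Kdm8, Ezh, Kat2 to Kat8 and Hdac families. It also took Ep300, Crebbp, Dot1l, Ehmt1 and Ehmt2, and it left out Kdm5c, Kdm5d and Kdm6a. This rule found 64 of the 54532 genes in the count table. Of these, 59 are enzyme genes, made up by family of 33 writers, which add a mark, and 26 erasers, which remove one. Kmt2e, Setd3, Setd4, Setd5, Setd6, Setd7, Kdm8, Hdac6, Hdac10 and Hdac11 are counted among them, though histones were not taken as their main substrate. The other 5 were Kdm6bos, a transcript from the strand opposite Kdm6b, the gene Kdm4dl, named as similar to Kdm4d, and the pseudogenes Kat2b-ps, Kat6b-ps1 and Kat6b-ps2. Setd9 had no row in the table used here.

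The 6 libraries came from CD4+ T cells of the spleen, with 3 libraries from mice given Akkermansia muciniphila, a mucus-degrading gut bacterium, against 3 from control mice that received phosphate-buffered saline (PBS). All mice were wild-type C57BL/6J kept under specific-pathogen-free conditions, and both groups drank dextran sulfate sodium (DSS), which injures the colon lining and causes colitis, while dosed every day. The libraries carry one batch label and the study calls them biological replicates. The labels do not say whether a library came from 1 mouse or from several, how old or of which sex the mice were, or how the T cells were isolated. The cell type entry names CD4 for every library, whereas the free-text descriptions of replicates 2 and 3 of both groups name CD5 and CD6. Cd4 itself was present in all of them, at 891, 851 and 909 CPM (counts scaled to library size) in the Akkermansia libraries and 682, 723 and 660 CPM in the PBS libraries. Total gene counts were 15032257 to 15620607 in the Akkermansia libraries and 15125188 to 16677923 in the PBS libraries.

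DNA in the nucleus is wound around histones, and enzymes mark the histone tails. Methylation of lysine 4 of histone H3 (H3K4) marks promoters and enhancers in use, methylation of H3K27 marks silenced genes, methylation of H3K36 marks transcribed gene bodies, and acetylation loosens chromatin. In CD4+ T cells these marks are laid down and removed as naive cells turn into helper or regulatory cells. The data give messenger RNA levels of the enzymes only, and no histone mark was measured.

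In mice given A. muciniphila, 5 of the 6 H3K4 methyltransferase genes rose, while the H3K4 demethylase genes Kdm5a and Kdm5b and the H3K27 demethylase gene Kdm6b fell. The acetyltransferase genes divided, with Kat8 higher and Kat2b, Kat6b and Kat7 lower, and no histone deacetylase gene passed the test. Of the 33 writer genes, 6 were higher and 3 lower, with a median log2 fold change of 0.10, Akkermansia over PBS. Of the 25 eraser genes with enough reads to test, none was higher and 3 were lower, with a median of -0.03. A gene was called higher or lower where edgeR's quasi-likelihood test gave a Benjamini-Hochberg adjusted p under 0.05 across all 15138 genes tested. Of all genes tested, 15.6% were called, 7.32% higher and 8.28% lower, around a median of -0.01. At an unadjusted p under 0.05 there were 16 of the 33 writers and 9 of the 25 erasers, against 30.1% of all genes tested. DESeq2 called 6 writers higher and 2 lower, and 1 eraser higher and 3 lower, against 8.22% of all genes higher and 8.96% lower. limma-voom called 6 writers higher and 2 lower, and 0 erasers higher and 3 lower, against 7.37% of all genes higher and 7.87% lower. Without any 1 Akkermansia library 1 writer and 0 erasers were called lower, without PBS replicate 1 again 0 erasers were called lower, and erasers called higher numbered 1 without PBS replicate 2 and 2 without PBS replicate 3. The writers' median was 0.047 without PBS replicate 1 and 0.015 with an offset for coding length and GC content, and the erasers' median was -0.095 without PBS replicate 2 and 0.049 without PBS replicate 3. In whole-population RNA, fewer cells of a type and less RNA per cell cannot be told apart, which holds for every gene below.

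**Figure D1:**
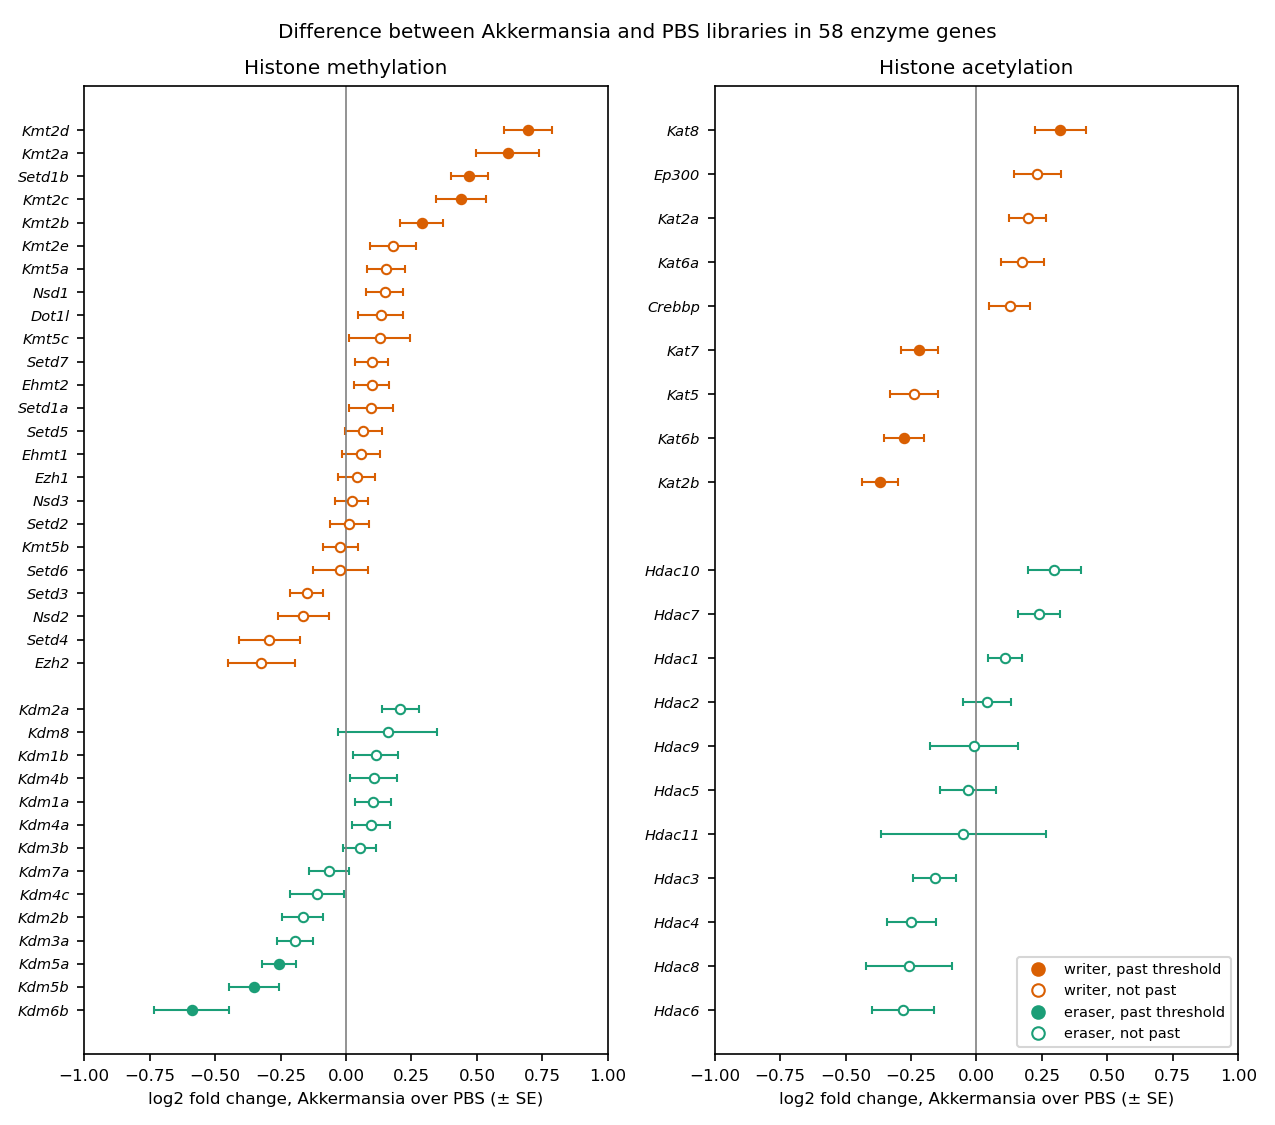
Log2 fold change, Akkermansia over PBS, with its standard error for the 58 enzyme genes tested, in 1 panel for methylation and 1 for acetylation, with colour for writers and erasers and filled points for genes called at an adjusted p under 0.05. Kmt2d lies furthest to the right at 0.70 and Kdm6b furthest to the left at -0.59.

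Kmt2d, which with Kmt2c places single methyl groups on H3K4 at enhancers, had 1705, 1729 and 1742 CPM in the Akkermansia libraries, against 921, 1064 and 1212 CPM in the PBS libraries. The Akkermansia libraries lay close together and all above the PBS libraries, whose spread was wider. The log2 fold change was 0.70 ± 0.09 (SE, n = 3 each, edgeR adjusted p = 0.000398). Per transcript length, Kmt2d had the highest mean of the enzyme genes with Akkermansia, at 85.4, 86.6 and 87.9 FPKM (fragments scaled to gene length and library size) in the Akkermansia libraries, and 45.7, 53.6 and 60.3 FPKM in the PBS libraries. Kmt2c had 572, 618 and 627 CPM with Akkermansia and 378, 466 and 497 CPM with PBS. Its groups did not overlap, and its log2 fold change was 0.44 ± 0.09 (SE, edgeR adjusted p = 0.00876).

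Kmt2a, which methylates H3K4 at promoters and keeps developmental genes active, had 1087, 1074 and 1080 CPM with Akkermansia and 553, 799 and 761 CPM with PBS. The PBS libraries were all lower, and PBS replicate 1 was the lowest of the 6. The log2 fold change was 0.62 ± 0.12 (SE, edgeR adjusted p = 0.00810). Kmt2b, its closest relative, had 429, 437 and 416 CPM with Akkermansia and 328, 323 and 397 CPM with PBS, a log2 fold change of 0.29 ± 0.08 (SE, edgeR adjusted p = 0.0327). These groups did not overlap, but the call for Kmt2b was lost without any 1 Akkermansia library and without PBS replicate 1 or 2, with adjusted p-values up to 0.126 and a log2 fold change of at least 0.24. With an offset for coding length and GC content it was also lost, at 0.02 (adjusted p = 0.871). Kmt2a, Kmt2c, Kmt2d and Setd1b were called with any 1 library left out.

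Setd1b, a catalytic subunit of the SET1 complexes that carry out much of the cell's H3K4 trimethylation, had 286, 278 and 270 CPM with Akkermansia and 190 (189.7), 198 and 214 CPM with PBS. All Akkermansia libraries lay above all PBS libraries, with little spread in either group, and the log2 fold change was 0.47 ± 0.07 (SE, edgeR adjusted p = 0.000877). Setd1a, the other SET1 catalytic subunit, was the H3K4 writer that did not pass. It had 57.7, 57.0 and 55.1 CPM with Akkermansia and 47.8, 55.2 and 55.8 CPM with PBS, groups that overlapped, with a log2 fold change of 0.10 and an adjusted p of 0.486 by edgeR. Kmt2e, which carries the family name but is not known to methylate H3K4 in the way the others do, had a log2 fold change of 0.18 (edgeR adjusted p = 0.191).

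**Figure D2:**
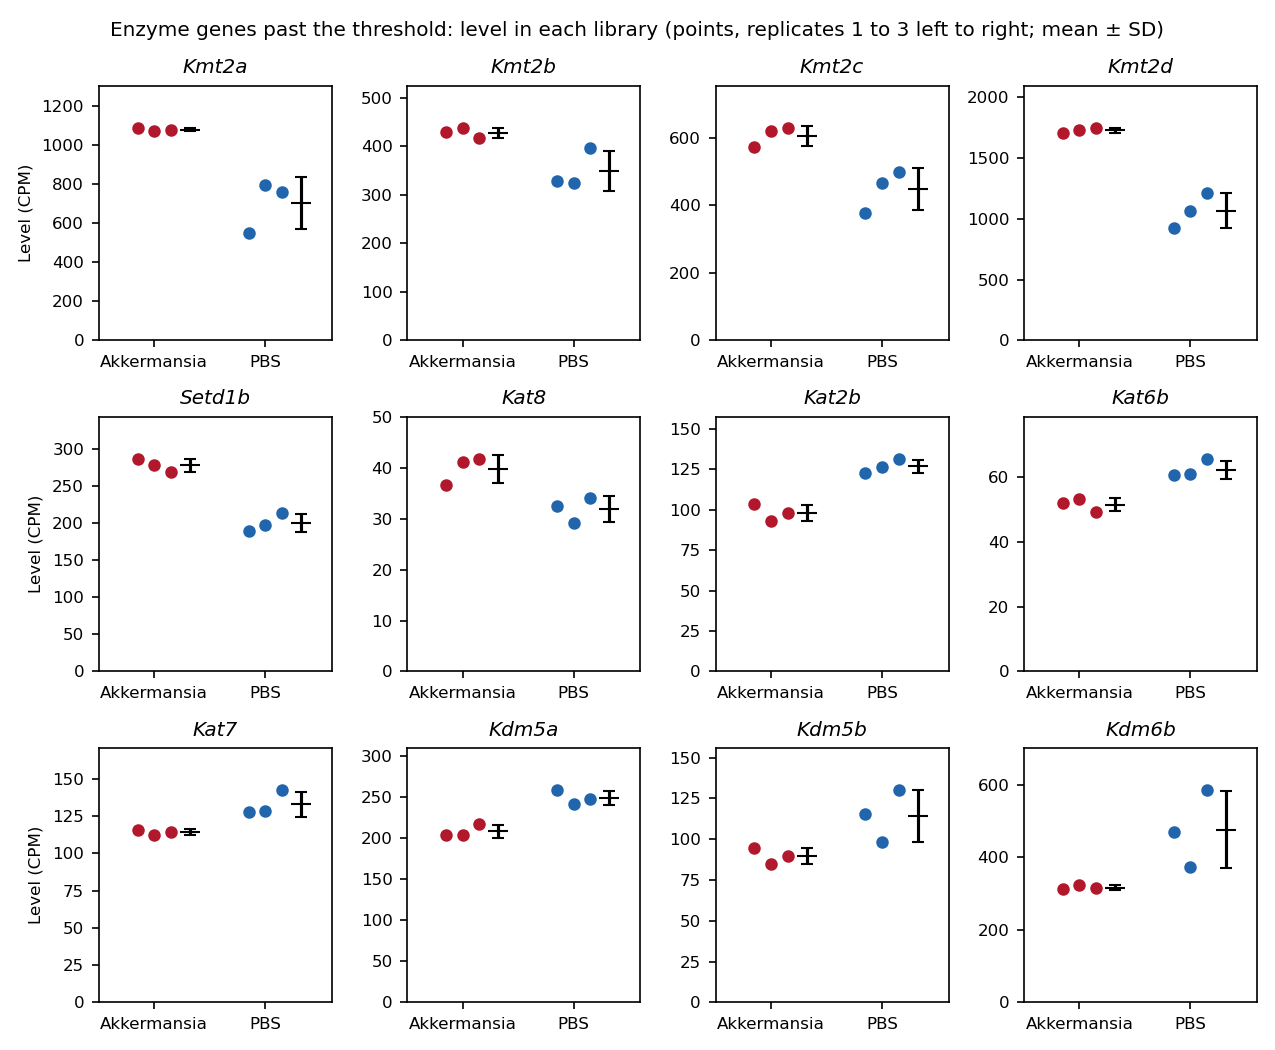
CPM in each library for the enzyme genes called, with Akkermansia libraries left of PBS libraries in each panel, points for libraries and bars for the group mean and SD. For Kmt2d the Akkermansia libraries run from 1705 to 1742 CPM and the PBS libraries from 921 to 1212 CPM.

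Promoter sequences are shown for the called genes with a single listed start in the promoter table used here, so that the H3K4 writers can be set beside called genes that fell. The 250 bases before the start, from RefSeq on mouse build GRCm38.p6, are chr15:98871206-98871455 on the minus strand for Kmt2d, chr9:44881290-44881539 on the minus strand for Kmt2a, chr5:25498784-25499033 on the minus strand for Kmt2c, chr1:134559928-134560177 on the plus strand for Kdm5b and chr11:95310247-95310496 on the minus strand for Kat7. Each is printed 5′ to 3′ on the gene's strand, with capitals marking any match, on either strand, to the GC box (GGGCGG), the ETS core (CCGGAAG), the CCAAT box, the CRE (TGACGTCA), the AP-1 site (TGANTCA) or the TATA box (TATAAA). Neighbouring matches can overlap.
Kmt2d: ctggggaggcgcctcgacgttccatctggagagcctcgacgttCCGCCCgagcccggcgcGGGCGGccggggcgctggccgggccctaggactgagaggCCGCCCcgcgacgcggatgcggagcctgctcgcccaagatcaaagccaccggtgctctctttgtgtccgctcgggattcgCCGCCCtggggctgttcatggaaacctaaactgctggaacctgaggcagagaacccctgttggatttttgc
Kmt2a: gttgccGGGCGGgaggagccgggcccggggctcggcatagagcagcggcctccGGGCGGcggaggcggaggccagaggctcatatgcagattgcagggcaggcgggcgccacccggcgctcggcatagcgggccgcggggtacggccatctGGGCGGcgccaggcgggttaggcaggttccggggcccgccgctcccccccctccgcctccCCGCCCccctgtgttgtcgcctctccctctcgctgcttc
Kmt2c: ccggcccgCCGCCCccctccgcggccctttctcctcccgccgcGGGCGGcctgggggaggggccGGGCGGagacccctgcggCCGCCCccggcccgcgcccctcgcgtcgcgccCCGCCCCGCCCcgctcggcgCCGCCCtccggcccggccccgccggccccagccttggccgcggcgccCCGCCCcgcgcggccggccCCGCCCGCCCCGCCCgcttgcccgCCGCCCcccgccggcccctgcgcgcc
Kdm5b: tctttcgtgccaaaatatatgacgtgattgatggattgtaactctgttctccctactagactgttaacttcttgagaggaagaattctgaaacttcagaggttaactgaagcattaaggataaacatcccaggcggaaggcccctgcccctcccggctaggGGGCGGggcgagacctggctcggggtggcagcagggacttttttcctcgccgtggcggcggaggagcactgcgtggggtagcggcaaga
Kat7: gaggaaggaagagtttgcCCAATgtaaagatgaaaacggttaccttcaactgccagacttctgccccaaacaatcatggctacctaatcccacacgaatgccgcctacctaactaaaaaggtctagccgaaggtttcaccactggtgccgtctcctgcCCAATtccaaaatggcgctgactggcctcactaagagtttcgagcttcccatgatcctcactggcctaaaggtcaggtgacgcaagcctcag
The promoters of Kmt2d and Kmt2a held 4 GC box matches each and that of Kmt2c held 12, against 1 in Kdm5b and 0 in Kat7, which held 2 CCAAT boxes. Of 32851 mouse promoters of the same length, 32.7% held a GC box and 33.8% a CCAAT box. CG dinucleotides numbered 26 in Kmt2d, 29 in Kmt2a, 48 in Kmt2c, 13 in Kdm5b and 8 in Kat7, against a median of 6 over all promoters. Of the 59 enzyme genes, 44 were in the promoter table, and the first listed promoter held a GC box in 26 of them and a CCAAT box in 19. A match describes letters in this window and says nothing of whether a factor bound there.

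No methyltransferase gene outside the H3K4 group passed the test, and whether the groups differ was not tested. Of the 24 methyltransferase genes, 5 were higher, those of the H3K4 group described above, and none was lower. Among all genes tested, edgeR called 7.32% higher and 8.28% lower. At an unadjusted p under 0.05 there were 8 of the 24, a share near the 30.1% of all genes, and neither DESeq2 nor limma-voom called any lower. Ezh2, the main H3K27 methyltransferase of dividing cells, had 52.2, 41.7 and 43.9 CPM with Akkermansia and 64.0, 62.0 and 46.3 CPM with PBS. Its groups overlapped, with PBS replicate 3 below Akkermansia replicate 1. The log2 fold change was -0.32 ± 0.13 (SE, edgeR adjusted p = 0.119), and the gene was called lower without PBS replicate 3, at -0.46 (adjusted p = 0.00967). Ezh1, its relative in resting cells, had a log2 fold change of 0.04.

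Among H3K36 writers, Nsd1 had a log2 fold change of 0.15, Nsd2 of -0.16, Nsd3 of 0.02 and Setd2, the trimethylating enzyme, of 0.01, with edgeR adjusted p-values of 0.181 or more. The H3K9 writers Ehmt1 and Ehmt2, which work as a pair, had log2 fold changes of 0.06 and 0.10. Dot1l, the H3K79 methyltransferase, had 0.13 and was called higher without PBS replicate 3, at 0.24 (edgeR adjusted p = 0.0294). The H4K20 methyltransferases Kmt5a, Kmt5b and Kmt5c had log2 fold changes of 0.15, -0.02 and 0.13. Setd4 had the most negative of the remaining values, at -0.29 (edgeR adjusted p = 0.107). Setd3, which methylates actin, had 132, 131 and 130 (130.0) CPM with Akkermansia and 148, 147 and 142 CPM with PBS, with no overlap and a log2 fold change of -0.15 (edgeR adjusted p = 0.130).

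On the eraser side, the 3 genes that fell all encode lysine demethylases of the JmjC type, which use oxygen and 2-oxoglutarate. Kdm6b, which removes methyl groups from H3K27 and is known to respond to inflammatory signals in macrophages, had 311, 323 and 314 CPM with Akkermansia and 469, 373 and 584 CPM with PBS. The Akkermansia libraries were all lower and close together, while the PBS libraries were spread over a wide range. The log2 fold change was -0.59 ± 0.14 (SE, edgeR adjusted p = 0.0296). Per length it had 44.7, 46.4 and 45.4 FPKM with Akkermansia and 66.7, 53.8 and 83.2 FPKM with PBS, where its mean was the highest of the enzyme genes. The call was lost without any 1 Akkermansia library or without PBS replicate 1, with adjusted p-values up to 0.0994 and log2 fold changes from -0.74 to -0.41 over all omissions.

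Kdm6bos, the opposite-strand transcript, also fell. It had 7.59, 7.61 and 5.50 CPM with Akkermansia and 12.1, 11.7 and 10.7 CPM with PBS, with no overlap and a log2 fold change of -0.73 ± 0.17 (SE, edgeR adjusted p = 0.0133). Its call was lost without Akkermansia replicate 3, where the adjusted p was 0.0652. The labels do not say whether strand was used in counting, and without strand, reads from Kdm6b and Kdm6bos cannot be told apart.

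Kdm5a, which strips trimethyl groups from H3K4, had 204, 205 and 218 CPM with Akkermansia and 259, 242 and 248 CPM with PBS. The groups stood apart with similar spread, and the log2 fold change was -0.26 ± 0.07 (SE, edgeR adjusted p = 0.0206). Its relative Kdm5b had 94.5, 85.1 and 89.9 CPM with Akkermansia and 115, 98.1 and 130 (129.9) CPM with PBS, a log2 fold change of -0.35 ± 0.10 (SE, edgeR adjusted p = 0.0264). All PBS values lay above all Akkermansia values, PBS replicate 2 by the least. Both calls were lost without any 1 Akkermansia library and without PBS replicate 1, and that of Kdm5b also without PBS replicate 3, with adjusted p-values up to 0.110 for Kdm5a and 0.122 for Kdm5b. The H3K4 demethylases of the other enzyme family, Kdm1a and Kdm1b, had log2 fold changes of 0.10 and 0.11, and their groups overlapped.

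Of the 14 demethylase genes tested, 3 fell and none rose by edgeR, DESeq2 or limma-voom. Among all genes tested, edgeR called 7.32% higher and 8.28% lower. At an unadjusted p under 0.05 there were 5 of the 14, a share near the 30.1% of all genes. Kdm2a, an H3K36 demethylase that binds unmethylated CG-rich DNA, had 232, 243 and 255 CPM with Akkermansia and 201, 225 and 206 CPM with PBS, with no overlap and a log2 fold change of 0.21 ± 0.07 (SE, edgeR adjusted p = 0.0660). Kdm2a was called higher without PBS replicate 2, at 0.26 (edgeR adjusted p = 0.0230). Kdm3a, which removes methyl groups from H3K9, had 152, 147 and 163 CPM with Akkermansia and 175, 172 and 183 CPM with PBS, with no overlap and a log2 fold change of -0.20 ± 0.07 (SE, edgeR adjusted p = 0.0713). The other H3K9 erasers tested, Kdm3b, Kdm4a, Kdm4b, Kdm4c and Kdm7a, had log2 fold changes between -0.11 and 0.11. Kdm4d was too low to test, with 5, 3 and 11 counts in the Akkermansia libraries and 7, 9 and 9 in the PBS libraries. Kdm4dl had 1, 1 and 4 counts with Akkermansia and 0 in each PBS library, and the 3 pseudogenes had 1 count among them over all libraries. Counts of 3 in a library correspond to 0.181 to 0.200 CPM.

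The acetyltransferase genes were called in both directions, 1 higher and 3 lower of 9 by edgeR. DESeq2 and limma-voom each called 1 higher and 2 lower. Of all genes tested, edgeR called 7.32% higher and 8.28% lower. An unadjusted p under 0.05 was met by 8 of the 9, against 30.1% of all genes tested. Kat2b, which acetylates H3 as part of transcriptional coactivator complexes, fell, with 103, 93.2 and 97.97 CPM in the Akkermansia libraries and 123, 127 and 131 CPM in the PBS libraries. The groups stood well apart, the log2 fold change was -0.37 ± 0.07 (SE, edgeR adjusted p = 0.00378), and it was called with any 1 library left out. Kat2a, its close relative in the same complexes, had 85.8, 87.96 and 93.5 CPM with Akkermansia and 76.5, 81.3 and 75.7 CPM with PBS. These groups did not overlap either, in the opposite direction, with a log2 fold change of 0.20 ± 0.07 (SE, edgeR adjusted p = 0.0816). Kat2a was called higher without PBS replicate 2, at 0.23 (edgeR adjusted p = 0.0482).

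All 5 genes of the MYST family of acetyltransferases had groups that did not overlap, 2 with Akkermansia above and 3 with Akkermansia below. Among all genes tested, groups did not overlap for 34.9%, with Akkermansia above for 17.1% and below for 17.8%. Kat8, which acetylates histone H4, had 36.7, 41.2 and 41.7 CPM with Akkermansia and 32.5, 29.1 and 34.2 CPM with PBS, a log2 fold change of 0.32 ± 0.10 (SE, edgeR adjusted p = 0.0425). Kat6b, an H3 acetyltransferase, had 51.8, 53.1 and 49.2 CPM with Akkermansia and 60.5, 60.8 and 65.4 CPM with PBS, a log2 fold change of -0.28 ± 0.08 (SE, edgeR adjusted p = 0.0290). Kat7 had 116, 112 and 114 CPM with Akkermansia and 128, 128 and 142 CPM with PBS, a log2 fold change of -0.22 ± 0.07 (SE, edgeR adjusted p = 0.04999).

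These 3 MYST calls sat close to the threshold. Kat7 was not called by DESeq2 (adjusted p = 0.0741) or limma-voom (adjusted p = 0.0570), and its call was lost on leaving out any library other than PBS replicate 2. Kat8 was lost without any 1 Akkermansia library or PBS replicate 1 or 2, and Kat6b without any 1 Akkermansia library or PBS replicate 3, with adjusted p-values up to 0.185 for Kat7, 0.154 for Kat8 and 0.130 for Kat6b. Kat5, the catalytic subunit of the TIP60 complex, had a log2 fold change of -0.24 (edgeR adjusted p = 0.0944), and Kat6a had 0.18 (edgeR adjusted p = 0.162). Of the paired coactivators that acetylate H3K27 at enhancers, Ep300 had 359, 366 and 345 CPM with Akkermansia and 258, 319 and 334 CPM with PBS, with no overlap, a log2 fold change of 0.23 ± 0.09 and an edgeR adjusted p of 0.0982. Ep300 was called higher without PBS replicate 3, at 0.31 (edgeR adjusted p = 0.0332). Crebbp had 0.13 (edgeR adjusted p = 0.321) and its groups overlapped.

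None of the 11 histone deacetylase genes was called by edgeR or limma-voom, and 4 had an unadjusted p under 0.05, where 30.1% of all genes did. Hdac7, a class IIa enzyme abundant in T cells, had 369, 368 and 341 CPM with Akkermansia and 293, 283 and 338 CPM with PBS, with a narrow gap between the groups and a log2 fold change of 0.24 ± 0.08 (SE, edgeR adjusted p = 0.0595). It was the 1 deacetylase that DESeq2 called, at an adjusted p of 0.0357, and edgeR called it without PBS replicate 3 (adjusted p = 0.00884). Hdac10, a class IIb enzyme, had 48.1, 51.0 and 53.9 CPM with Akkermansia and 38.4, 38.3 and 47.7 CPM with PBS, a log2 fold change of 0.30 ± 0.10 (SE, edgeR adjusted p = 0.0642). Hdac10 was called higher without PBS replicate 3, at 0.41 (edgeR adjusted p = 0.00972). Hdac4 and Hdac6 had log2 fold changes of -0.25 (adjusted p = 0.0873) and -0.28 (adjusted p = 0.130) by edgeR. Hdac4 was called lower without PBS replicate 2, at -0.35 (adjusted p = 0.00385). The class I enzymes Hdac1, Hdac2 and Hdac3, which sit in the large corepressor complexes, had 0.11, 0.04 and -0.16. Hdac8, also of class I, had -0.26, and Hdac9 and Hdac11, at under 1 FPKM on average, had -0.01 and -0.05.

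Summed over all writers, levels were 777.81, 773.98 and 777.59 FPKM in the Akkermansia libraries, against 631.77, 690.91 and 714.56 FPKM in the PBS libraries. Summed over all erasers, levels were 406.45, 409.78 and 419.26 FPKM in the Akkermansia libraries and 411.08, 400.25 and 455.81 FPKM in the PBS libraries. The writer sums did not overlap between groups and the eraser sums did. The ratio of writer to eraser FPKM was 1.91, 1.89 and 1.85 with Akkermansia and 1.54, 1.73 and 1.57 with PBS, or 1.89 ± 0.0296 and 1.61 ± 0.102 (SD, n = 3 each). For H3K4 enzymes alone the ratio was 5.08, 5.11 and 4.88 with Akkermansia and 2.81, 3.60 and 3.67 with PBS. With the H3K4 writers and erasers both left out it was 1.47, 1.44 and 1.42 with Akkermansia and 1.34, 1.45 and 1.29 with PBS, and the groups overlapped. No test was made on these sums, since they rest on the genes already described.

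**Figure D3:**
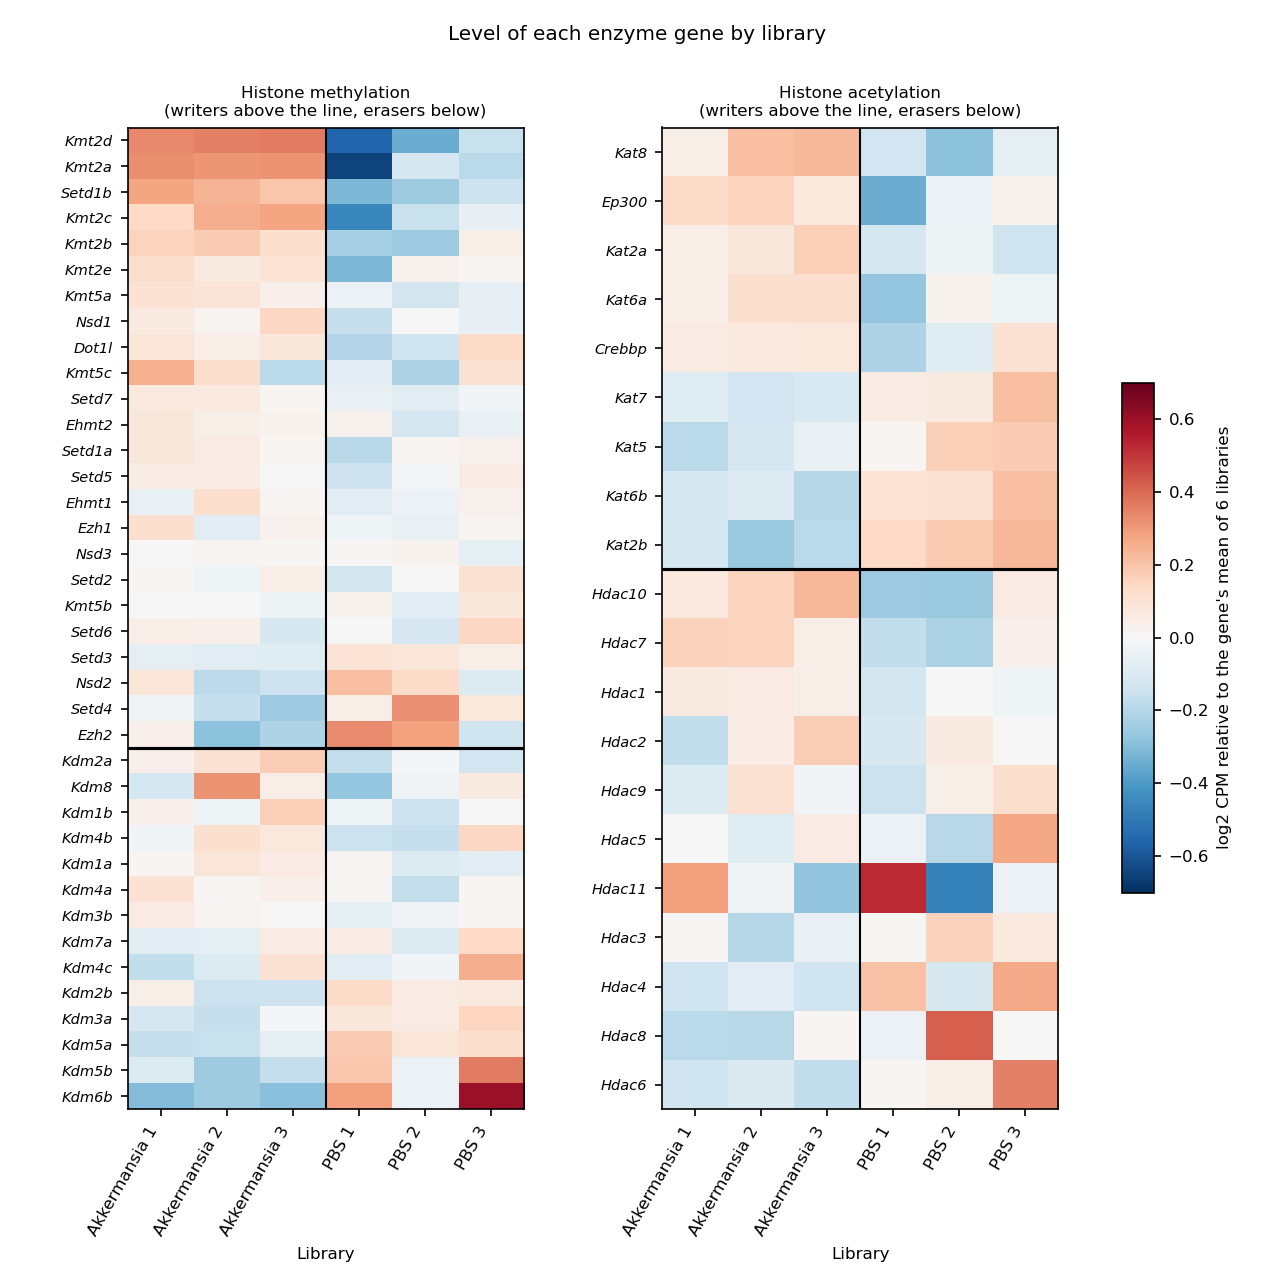
Log2 CPM of each tested member minus its own mean over the 6 libraries, with Akkermansia libraries left of PBS libraries and, in separate panels for methylation and acetylation, writers above erasers. The 6 H3K4 writers are above their mean in all Akkermansia libraries, and PBS replicate 1 holds the lowest value of 14 writers.

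Libraries differed in how the enzymes ranked. Of the 58 enzyme genes tested, PBS replicate 1 had the lowest CPM for 19 genes, 14 of them writers. PBS replicate 2 had the lowest for 17, 8 of them writers, and PBS replicate 3 had the highest for 20. The Akkermansia libraries were lowest for 6, 10 and 4 genes and highest for 12, 7 and 9. The groups did not overlap for 31 of the 58 genes, with Akkermansia above in 18 and below in 13. Over all genes tested, 34.9% had groups that did not overlap, 17.1% with Akkermansia above and 17.8% with Akkermansia below. Of the writers, Akkermansia was above in 14 and below in 6 of 33, and of the erasers above in 4 and below in 7 of 25.

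The H3K4 writers that rose include some of the longest coding sequences in the genome, and other long genes also had mostly positive fold changes. Among genes averaging 10 CPM or more, the 42 with over 10000 coding bases had a median log2 fold change of 0.37 (quartiles 0.23 and 0.47), with 24 called higher and 1 lower, while the 2547 with at most 1000 coding bases had a median of -0.04. Their medians relative to each gene's own mean were 0.11, 0.23 and 0.22 in the Akkermansia libraries and -0.39, -0.11 and -0.07 in the PBS libraries, PBS replicate 1 being the lowest. Kmt2a, Kmt2c and Kmt2d are 3 of the 42, with 11898, 14712 and 16764 coding bases. Of the other 39, 21 were called higher and 1 lower, with a median of 0.36. The value of Kmt2c lay within the quartiles of this class, and those of Kmt2a and Kmt2d lay above them.

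With an offset for coding length and GC content, chosen after the data were seen, Kmt2a kept a log2 fold change of 0.41 (edgeR adjusted p = 0.00553), Kmt2d 0.39 (adjusted p = 0.00166), Kmt2c 0.28 (adjusted p = 0.0113) and Setd1b 0.24 (adjusted p = 0.0146). Kmt2b was the H3K4 writer that lost its call. Kdm6b was at -0.78 (adjusted p = 0.000600) under the offset, and Kdm5a and Kdm5b were again called lower, at -0.26 and -0.38. Under it 6 genes were called that had not been, Kdm2a higher and Hdac4, Hdac6, Kat5, Kdm2b and Setd4 lower, which gave 6 members higher and 11 lower in all.

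**Figure D4:**
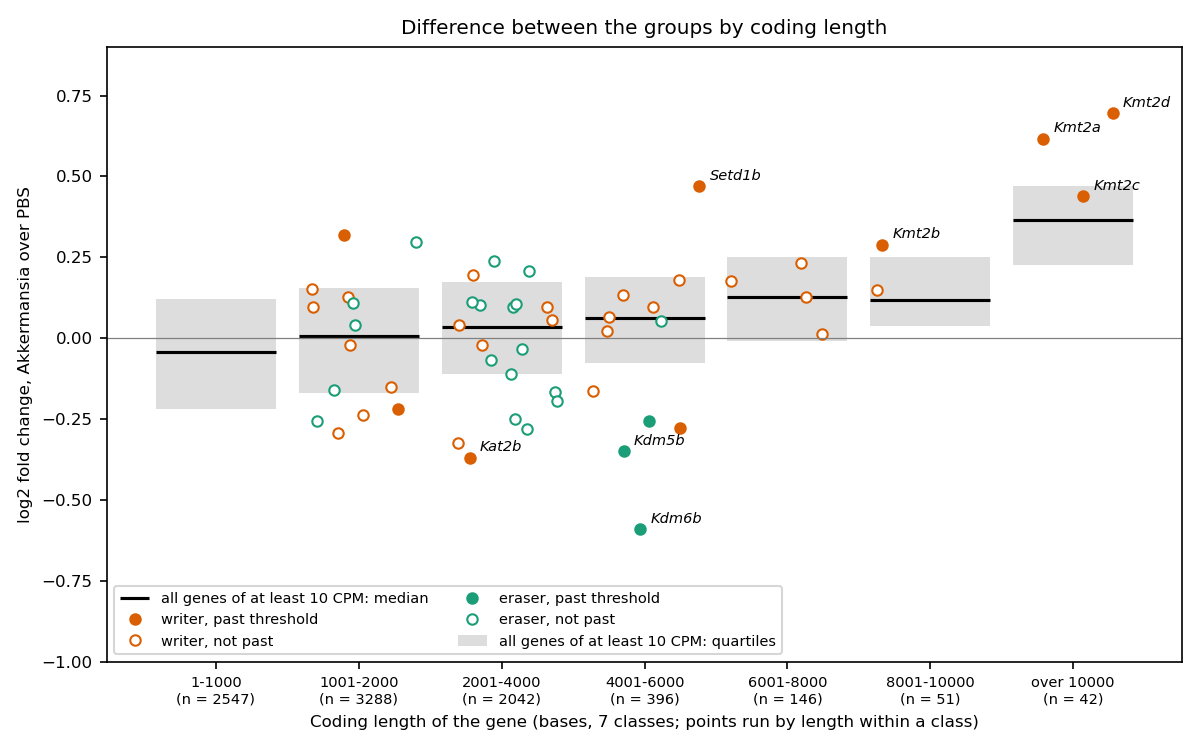
Log2 fold change, Akkermansia over PBS, by class of coding length in bases. Grey boxes give the quartiles and black lines the median of all genes averaging 10 CPM or more, and points give the enzyme genes, filled where called. The class median is -0.04 at up to 1000 bases and 0.37 above 10000 bases.

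Partner proteins of these enzymes were described from lists of known complex subunits, also chosen with earlier results of these data known. Of all genes tested, edgeR called 7.32% higher and 8.28% lower, and 30.1% had an unadjusted p under 0.05. Of 11 tested subunits of the COMPASS complexes, which hold the H3K4 writers, 2 were higher and none lower by edgeR, DESeq2 or limma-voom, with 3 at an unadjusted p under 0.05 and a median of 0.06. These were Men1, which tethers Kmt2a and Kmt2b to chromatin, at a log2 fold change of 0.44, and Hcfc1, shared with the SET1 complexes, at 0.32. Of 9 subunits of PRC2, the complex that carries Ezh1 and Ezh2, 3 were lower by edgeR and limma-voom and 2 by DESeq2, and none was higher by any of these tools, with 5 at an unadjusted p under 0.05 and a median of -0.16. They were Eed, the core subunit that reads the H3K27 mark, at -0.35, and the accessory subunits Aebp2 at -0.29 and Mtf2 at -0.24.

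Of 29 subunits of deacetylase complexes, 5 were higher and 1 lower by edgeR, with a median of 0.06. DESeq2 and limma-voom each called 5 higher and 0 lower. At an unadjusted p under 0.05 there were 9 of the 29, a share near the 30.1% of all genes. Among those higher were Chd3 and Chd4, motor subunits of the NuRD complex, at 0.79 and 0.30, and Mbd3 of the same complex at 0.29. Of 37 subunits of acetyltransferase complexes, 3 were higher and 6 lower, with 14 at an unadjusted p under 0.05 and a median of 0.00. The 4 with the smallest p were all lower, Morf4l1, Ing3, Epc2 and Ing5, at -0.49, -0.59, -0.44 and -0.43. The 3 called higher had larger p-values, and the list was not divided by complex.

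Enzymes of histones outside the rule were called in both directions. Of all genes tested, edgeR called 7.32% higher and 8.28% lower, and 30.1% had an unadjusted p under 0.05. Of 20 other methyltransferases, the arginine methyltransferase Prmt5 was higher at 0.34 and the H3K9 enzyme Suv39h2 lower at -0.81. Of 7 other demethylases, Riox2 was higher at 0.43 and Jmjd1c lower at -0.38. Of 11 other acetyltransferases, Atf2 was lower at -0.32 and none was higher by edgeR, DESeq2 or limma-voom, with 4 at an unadjusted p under 0.05. Of 7 sirtuins, the deacetylases that use NAD, Sirt1 was lower at -0.48 and none was higher by any of these tools, also with 4 at an unadjusted p under 0.05. Of 26 readers of histone marks, 3 were higher and 1 lower, with 14 at an unadjusted p under 0.05 and a median of -0.02. Those higher were Mllt1 at 0.33, Cbx2 at 0.52 and Brd3 at 0.32.

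Markers of other cells moved along with these genes. Of all genes tested, edgeR called 7.32% higher and 8.28% lower. The summed level of 18 B cell markers was 1773 to 1887 CPM in the Akkermansia libraries and 1114 to 1280 CPM in the PBS libraries, with 17 of the 18 called higher. Both CD8 genes were higher, summing to 61.3 to 93.4 CPM with Akkermansia and 19.1 to 20.2 CPM with PBS. Of 9 natural killer cell markers 5 were higher, summing to 83.2 to 101.8 CPM with Akkermansia and 62.1 to 75.5 CPM with PBS, and of 11 myeloid markers 3 were higher, summing to 364 to 419 CPM with Akkermansia and 236 to 278 CPM with PBS. Plasma cell markers summed to 581 to 743 CPM with Akkermansia and 223 to 357 CPM with PBS. Of 6 tested, edgeR called 0 higher and 2 lower, while 4 had log2 fold changes above 0, with a median of 0.57. For these markers DESeq2 called 2 higher and 2 lower, and limma-voom 1 higher and 1 lower. Erythroid markers summed to 215 to 377 CPM with Akkermansia and 426 to 980 CPM with PBS, with 1 of 7 lower. Of 10 CD4+ T cell markers 4 were higher and 1 lower, summing to 4596 to 4841 CPM with Akkermansia and 4353 to 4541 CPM with PBS. Of 18 proliferation genes 7 were lower and none higher by edgeR, DESeq2 or limma-voom, with 11 at an unadjusted p under 0.05, summing to 815 to 917 CPM with Akkermansia and 1099 to 1216 CPM with PBS. No marker found in the table was at 0 in every library. The part of these cells and of proliferation in the enzyme results was not tested.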

How the data were processed

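RNA-seq of poly(A)-selected RNA from 6 libraries of splenic CD4+ T cells was used, 3 per group. The authors deposited raw counts per gene and FPKM values, per the file headers and the values themselves. Reads were placed on mouse build GRCm39 according to the submitters' processing notes. The labels name no aligner, counter, annotation or strand setting. CPM and the tests were computed from the counts with edgeR 4.0.16 in R 4.3.3 (filterByExpr with a minimum count of 10 and total of 15, TMM scaling, quasi-likelihood F test, no covariate), with Benjamini-Hochberg adjustment over 15138 genes and a threshold of 0.05. Of the 64 members 59 passed the filter. The deposited FPKM values served for levels between genes and for sums. The common biological coefficient of variation was 12.3%. p-values measure the spread between 3 libraries per group. Alternatives used DESeq2 1.42.0, limma-voom (limma 3.58.1), other scalings and filters, log2(FPKM + 1) and log2(FPKM + 0.1) in limma, a replicate block, single libraries left out and, added after seeing the data, an offset for coding length and GC content over protein-coding genes. Coding lengths came from an annotation of another build, GENCODE on GRCm38, matched by gene ID for 12301 of the genes tested and 58 of the 59 members. The script was also tested on simulated data. Members and lists were chosen with earlier results of these data known. Every member could be named, and of each other list up to 4 called genes with the smallest p, some of which are not reported here. Figures were drawn with matplotlib 3.10.9.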

Additional observations from a re-analysis of the deposited data

How the results depend on the processing

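Kmt2a, Kmt2c, Kmt2d, Setd1b and Kat2b were called in the same direction under all 17 alternatives, with adjusted p-values up to 0.0499 for Kmt2c. Erasers called higher, 0 by edgeR, numbered 1 with DESeq2, with RLE size factors, with library totals, with the replicate block and with the coding length and GC offset, and 3 with no filter. Members called higher, 6 by edgeR, numbered 10 with no filter. On log2(FPKM + 1) and on log2(FPKM + 0.1), 2 members, 1 writer and 0 erasers were called lower, against 7, 3 and 3 by edgeR. Kdm5a, Kdm5b, Kdm6b, Kat6b, Kat7, Kat8 and Kmt2b lost their calls there, with adjusted p-values from 0.0527 to 0.160. With the coding length and GC offset 11 members, 5 writers and 6 erasers were called lower, and the medians were -0.020 for members and 0.015 for writers. Leaving out 1 library gave 4 to 10 members, 4 to 8 writers and 0 to 2 erasers higher, 1 to 8 members, 1 to 3 writers and 0 to 4 erasers lower, and medians of 0.026 to 0.089, 0.047 to 0.11 and -0.095 to 0.049. Genes called in all numbered 1142 to 2560, against 2361, the lowest without Akkermansia replicate 2.

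The offset turned the sign of genes that were not called, to -0.058 for Crebbp, -0.041 for Dot1l, -0.017 for Ehmt1, -0.065 for Ehmt2, -0.11 for Kdm3b, -0.024 for Kdm4b, 0.0094 for Kdm7a, 0.023 for Kmt5b, -0.096 for Setd1a and -0.055 for Setd2. Hdac9 turned to 0.00694 with no filter, 0.00025 on log2(FPKM + 1) and 0.0015 on log2(FPKM + 0.1). On leaving out 1 library the sign turned for Ezh1 (-0.0010 to 0.091), Hdac9 (-0.091 to 0.054), Hdac5 (-0.13 to 0.11), Hdac11 (-0.25 to 0.24), Hdac2 (-0.037 to 0.14), Setd2 (-0.053 to 0.073), Setd6 (-0.081 to 0.049), Kmt5b (-0.063 to 0.016) and Nsd3 (-0.0027 to 0.039). The cause of these changes was not tested.

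With the replicate number as a block, 2538 genes were called, Ezh2 (adjusted p = 0.0470) and Hdac10 (adjusted p = 0.0363) were added and Kat7 (adjusted p = 0.0578) was lost. Libraries of the same number correlated in their deviations from the group means at 0.0846, 0.0774 and 0.0303, in each case more than with another number but under 0.1, so the numbers were not taken as pairs.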
